A study of Glycine max with 8 samples.

Results

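Re-watering for 1 day after the first drought was examined by comparing the WT2 arrays with the DR1 arrays, 4 of the 8 arrays of a soybean leaf experiment. The members were set by the sample labels alone, 2 arrays for each condition. WT1 seedlings (*Glycine max* cv. Daepoong) had their water tray throughout. DR1 seedlings had grown for 7 days before the tray was withdrawn, WT2 plants were DR1 plants that received water again for 1 day, and DR2 plants then went through a second drought of 4 days. For the first drought, the sample characteristics of DR1 say 4 hours and the treatment protocol says 4 days. The paper speaks of days. All plants shared the same cultivar, chamber and tissue, RNA came from leaves pooled over seedlings, and the labels describe the 2 arrays of a condition as independent biological replicates.

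When water is withheld, leaves accumulate abscisic acid (ABA), which closes stomata and turns on transcripts for protective proteins and compatible sugars, while photosynthesis and cell expansion are held back. ABA is made from carotenoids by 9-cis-epoxycarotenoid dioxygenases, is sensed by receptors that block PP2C phosphatases, and acts through bZIP transcription factors. Re-watering refills the cells, after which ABA is broken down and growth can resume.

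The DR1 arrays lay on one slide together with WT1, and the WT2 arrays on another together with DR2, so slide and re-watering cannot be told apart in this comparison. Replicates differed by a median of 0.36 on the log2 scale at WT2, 0.13 at DR1, 0.25 at WT1 and 0.36 at DR2. The scanning software placed 55.2% to 65.2% of an array's probes well above background and marked 0 spots as saturated. Leaf markers were present: the summed intensity of 16 transcripts of light-harvesting and RuBisCO small subunit proteins was 274190 and 325520 on the DR1 arrays and 1069700 and 1116800 on the WT2 arrays.

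The 2 WT2 arrays did not stand at the same distance from DR1, and each is therefore given beside the mean throughout. The difference was most regular among 230 transcripts that were over 32-fold higher at DR1 than at WT1 and well above background on both DR1 arrays, a set chosen with these values in view. On WT2 replicate 1 these transcripts stood at a median of 16.6% of their mean DR1 intensity (quartiles 15.5% and 17.6%), and 226 of the 230 (98.3%) lay between 10% and 25%. On WT2 replicate 2 the median was 1.40% (quartiles 0.627% and 2.48%), next to 1.29% and 1.13% on the WT1 arrays. Thus replicate 2 stood near the watered level, and replicate 1 stood above it by a nearly constant share of the drought level.

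The share on replicate 1 moved little with the size of the drought rise, whereas that on replicate 2 did. Among 969 transcripts over 8-fold higher at DR1 than at WT1 the medians were 20.2% of DR1 on replicate 1 and 6.92% on replicate 2. Among 76 over 128-fold higher they were 16.3% (quartiles 15.3% and 17.1%) and 0.445%. On the signal of the scanning software scaled to each array's 75th percentile, the 230 transcripts stood at 17.3% and 0.897%.

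Transcripts that DR1 had not raised showed a far smaller gap. A group of 191 transcripts was over 32-fold higher at DR2 than at WT1 but within 2-fold of WT1 at DR1. These stood at a median of 101% of the WT1 mean on WT2 replicate 1 and 112% on replicate 2, or 1.75% and 1.86% of their DR2 mean. In the other direction, 84 transcripts that were over 32-fold lower at DR1 than at WT1 had returned to a median of 72.4% of WT1 on replicate 1 (quartiles 49.2% and 99.4%) and 95.3% on replicate 2 (quartiles 70.7% and 123%). The elevated share on replicate 1 was thus seen for transcripts that were high in the DR1 samples, and what set it was not tested.

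**Figure D1:**
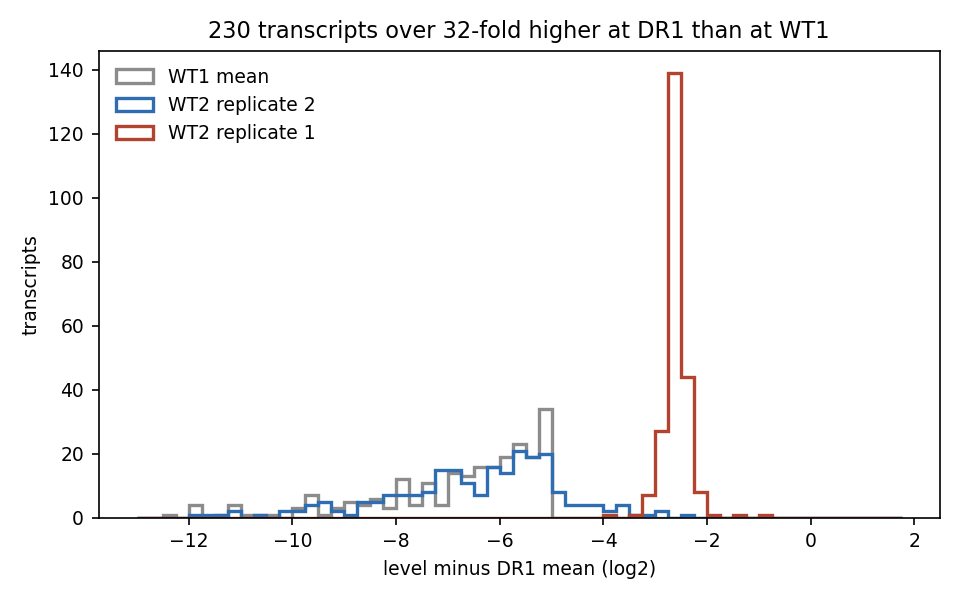
Histograms of the level minus the DR1 mean (horizontal axis, log2 scale) for the 230 transcripts over 32-fold higher at DR1 than at WT1, with the number of transcripts on the vertical axis and 1 outline each for the WT1 mean, WT2 replicate 1 and WT2 replicate 2. Replicate 1 forms a narrow peak around its median of 16.6% of DR1, while replicate 2, with a median of 1.40%, spreads over the range of WT1.

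Across 54851 transcripts tested, limma called 2196 higher at WT2 than at DR1 (4.00% of those tested) and 1726 lower (3.15%), with a call needing over 4-fold and an adjusted P below 0.05. The higher calls came from 2058 loci and the lower calls from 1524 loci. The median change over all tested transcripts was -0.07 on the log2 scale. The higher calls had a median change of 2.56 and a largest one of 9.59, and the lower calls had a median of -2.64 and a largest fall of -7.18. In no called transcript did the WT2 arrays overlap the DR1 arrays.

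Both directions were larger on WT2 replicate 2, and the falls far more so. The higher calls stood above DR1 by a median of 2.33 on replicate 1 and 2.85 on replicate 2, and 1593 of them (72.5%) passed 4-fold on replicate 1 against 2162 (98.5%) on replicate 2. The lower calls changed by a median of -2.09 on replicate 1 and -3.20 on replicate 2, with 1014 (58.7%) and 1721 (99.7%) past 4-fold. Of the lower calls, 1714 of 1726 (99.3%) were further from DR1 on replicate 2. Without replicate 1 the counts were 2976 higher and 2717 lower, and without replicate 2 they were 1562 and 988. With 1 WT2 array left, the error of these fits comes from the other conditions, so these counts do not measure how well the WT2 arrays agree.

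**Figure D2:**
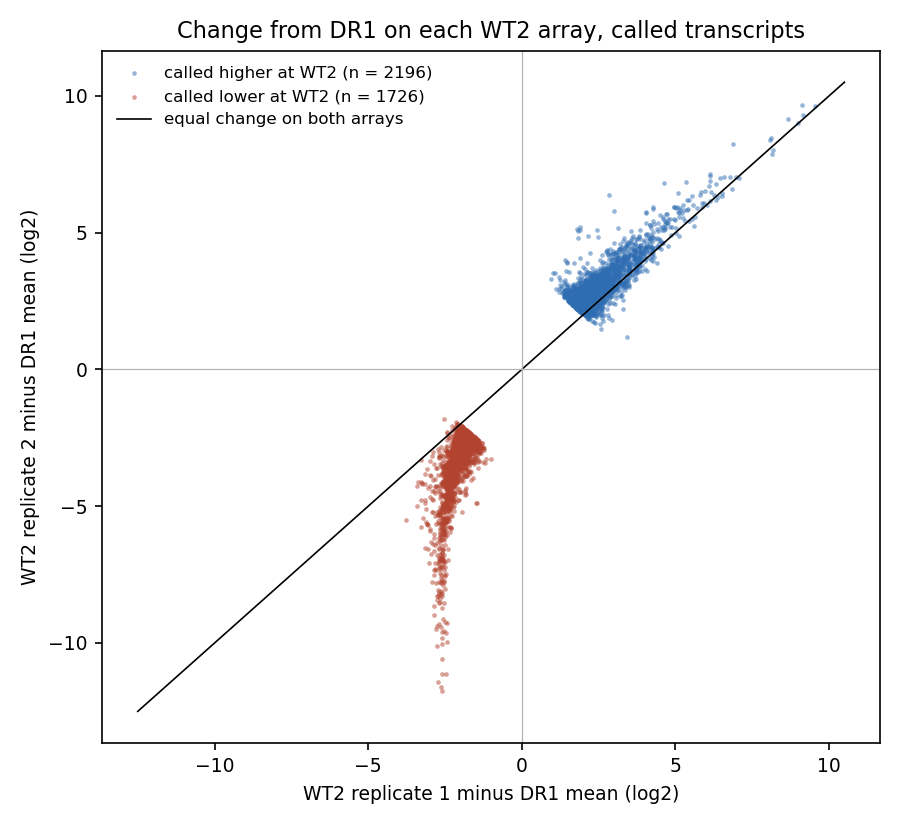
Log2 change from the DR1 mean on WT2 replicate 1 (horizontal axis) and on WT2 replicate 2 (vertical axis) for the 2196 higher and 1726 lower calls, 1 point per transcript. The line marks equal change on both arrays. The higher calls, up to a mean of 9.59, lie along it, while the lower calls (median -2.09 on replicate 1 and -3.20 on replicate 2) turn downward away from it.

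The median log2 level of the higher calls was 6.83 at DR1 and 9.68 at WT2, beside 9.43 at WT1. For the lower calls it was 10.42 at DR1 and 7.36 at WT2, beside 6.60 at WT1. Relative to the WT1 mean, the lower calls were at a median of 1.07 on WT2 replicate 1 and -0.14 on replicate 2, and the higher calls at -0.07 and 0.41. Of the lower calls, 799 (46.3%) were within 2-fold of WT1 on replicate 1 and 1446 (83.8%) on replicate 2. These distances use the same arrays as the calls and are given as levels only.

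Among nuclear photosynthesis transcripts, 21 of 42 were called higher at WT2 and 0 lower. The families below were taken from the annotation in the study's tables, which list transcripts chosen for their change from WT1 to DR1 on these same arrays, so a list's direction is not independent evidence. Of the 4460 listed transcripts tested, 27.5% were called higher and 31.6% lower, with a median change of -0.55, which is the background for the counts. Among 13 light-harvesting transcripts (Chloroa_b-bind), which carry the antenna chlorophylls, 7 rose and 0 fell, with a median of 2.04 (1.95 on replicate 1 and 2.13 on replicate 2). All 3 RuBisCO small subunit transcripts rose (median 3.52), as did 11 of 26 nuclear transcripts for photosystem and cytochrome b6f subunits, with 0 lower and a median of 1.86. From the scanner intensities the RuBisCO median was 2.21 with a normexp offset of 0, 1.85 with an offset of 50 and 2.56 on the processed signal. In the last 2 settings 1 and 2 of the 3 were called. The call of Glyma.18G182200-1 was lost in all 3 settings, that with an offset of 0 included. In pooled leaf RNA, fewer cells of a type and less RNA per cell cannot be told apart.

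The light-harvesting transcript Glyma.16G165200-1, similar to *Arabidopsis* LHCB1.4, had intensities of 5028 and 6660.2 on the DR1 arrays and 109730 and 128087 on the WT2 arrays. Both WT2 arrays were far above both DR1 arrays and below the WT1 arrays, which read 144084 and 150844. The change was 4.36 ± 0.23 (SE, n = 2 and 2, adjusted P = 5.64e-05). A second transcript similar to LHCB1.4, Glyma.16G165800-1, went from 14119 and 17149 to 111424 and 114961, a change of 2.86. For Glyma.02G305400-1, similar to LHCB2.1, the intensities of 110454 and 134028 at DR1 and 236901 and 202974 at WT2 differed by 0.85, below the 4-fold limit. Antenna transcripts thus differed in the size of the change, and all 3 of these had both WT2 arrays above both DR1 arrays.

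The small subunit of RuBisCO, the CO2-fixing enzyme, showed the same order in Glyma.08G365300-1 (RbcS), with 355 and 391 at DR1 against 6862 and 8265 at WT2 (4.34 ± 0.34, adjusted P = 2.20e-04). A few named transcripts of chlorophyll synthesis were called higher. Glyma.06G247100-1, similar to *Arabidopsis* PORA, which reduces protochlorophyllide in the light, read 3787 and 5297 at DR1 and 67459 and 54796 at WT2 (3.76 ± 0.25, adjusted P = 1.25e-04). Glyma.14G185700-1, similar to HEMA1, the glutamyl-tRNA reductase that opens the pathway, rose by 2.81 from 3926 and 4507 to 28755 and 30235. Glyma.12G052500-1, similar to GUN4, which promotes the magnesium insertion step, rose by 2.81 as well. In each of these the replicate 1 and replicate 2 values of WT2 differed by less than the gap to DR1. The 83 chloroplast-encoded transcripts tested had a median change of 0.49, and 81 of them were not called. Of 58 mitochondrion-encoded transcripts tested 1 was called, orf110c with 2.75, beside a median of 0.01 that changed sign without WT2 replicate 1.

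Of 25 tested aquaporins, the channels that let water cross plant membranes, 17 rose and 2 fell, with a median of 2.84 (2.60 on replicate 1 and 3.05 on replicate 2). Glyma.05G208700-1 (MIP family) had 292 and 282 at DR1 and 9801 and 15526 at WT2, against 12696 and 14313 at WT1. Its change was 5.43 ± 0.26 (adjusted P = 3.56e-05). Glyma.08G015300-1 behaved alike, with 481 and 423 at DR1, 15721 and 23627 at WT2, and a change of 5.42. In both, replicate 2 of WT2 lay above replicate 1, and neither array overlapped DR1. The exception with the largest fall was Glyma.11G097700-1, with 2352 and 1886 at DR1 and 488 and 322 at WT2 (-2.41 ± 0.30, adjusted P = 0.00136).

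Expansins, which loosen the wall so that cells can enlarge, had 19 of 22 higher and 1 lower, with a median of 4.02 (3.66 and 4.20 on replicates 1 and 2). Glyma.01G050100-1 (Pollen_allerg_1) read 349 and 373 at DR1 and 39587 and 47741 at WT2, a change of 6.91 ± 0.22 (adjusted P = 5.51e-06). Glyma.02G109100-1 of the same family rose by 5.80, from 499 and 526 to 24415 and 33187. Both WT2 arrays of these expansins were above both WT1 arrays, which lay at 27787 and 25111 for the first and 18112 and 17031 for the second. The one expansin that fell, Glyma.20G033900-2, read 34282 and 31049 at DR1 and 10221 and 4727 at WT2 (-2.23), and its call was lost without WT2 replicate 2 and on the processed signal.

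Of 19 xyloglucan endotransglucosylases, which cut and rejoin wall xyloglucan, 8 rose and 5 fell, with medians of 0.74 on replicate 1 and 1.89 on replicate 2. The number of falls was 7 without WT2 replicate 1 and 1 without replicate 2. Of 30 SAUR and GASA transcripts, families responsive to auxin and gibberellin, 13 rose and 1 fell. Within them Glyma.04G169600-1 (GASA) rose from 138 and 133 to 16818 and 17681, a change of 6.99 ± 0.24 (adjusted P = 7.85e-06). Tubulins, the subunits of microtubules, had 7 of 8 higher and 0 lower (median 2.60), and histones 6 of 13 higher and 0 lower (median 1.56). The list of cyclins and kinesins, which act in the cell cycle and in transport along microtubules, had 2 of 13 higher and 4 lower. Of these 13, 10 were kinesins, with 1 higher and 3 lower. The family named Cyclin was not in this list and was looked at after its values were seen. Its 6 transcripts had 5 higher and 0 lower (median 2.74). Ribosomal proteins had 7 of 20 higher and 2 lower. For cyclins and kinesins the balance turned with the array left out, to 1 higher and 5 lower without WT2 replicate 1 and 3 higher and 1 lower without replicate 2.

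The histone transcript Glyma.12G055200-1 read 189.8 and 198 at DR1 and 1736 and 2691 at WT2 (3.48 ± 0.41, adjusted P = 0.00108), above the WT1 values of 1277 and 1382. The cyclin Glyma.20G135400-1 read 34.3 and 38.9 at DR1 and 436 and 528 at WT2 (3.72). By contrast, the kinesin Glyma.05G149700-1, similar to *Arabidopsis* PAKRP1, which acts at the phragmoplast, fell from 226 and 279.8 to 49.9 and 17.6 (-3.09), a call lost with a normexp offset of 50. The named cell-cycle transcripts thus moved in both directions.

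**Figure D3:**
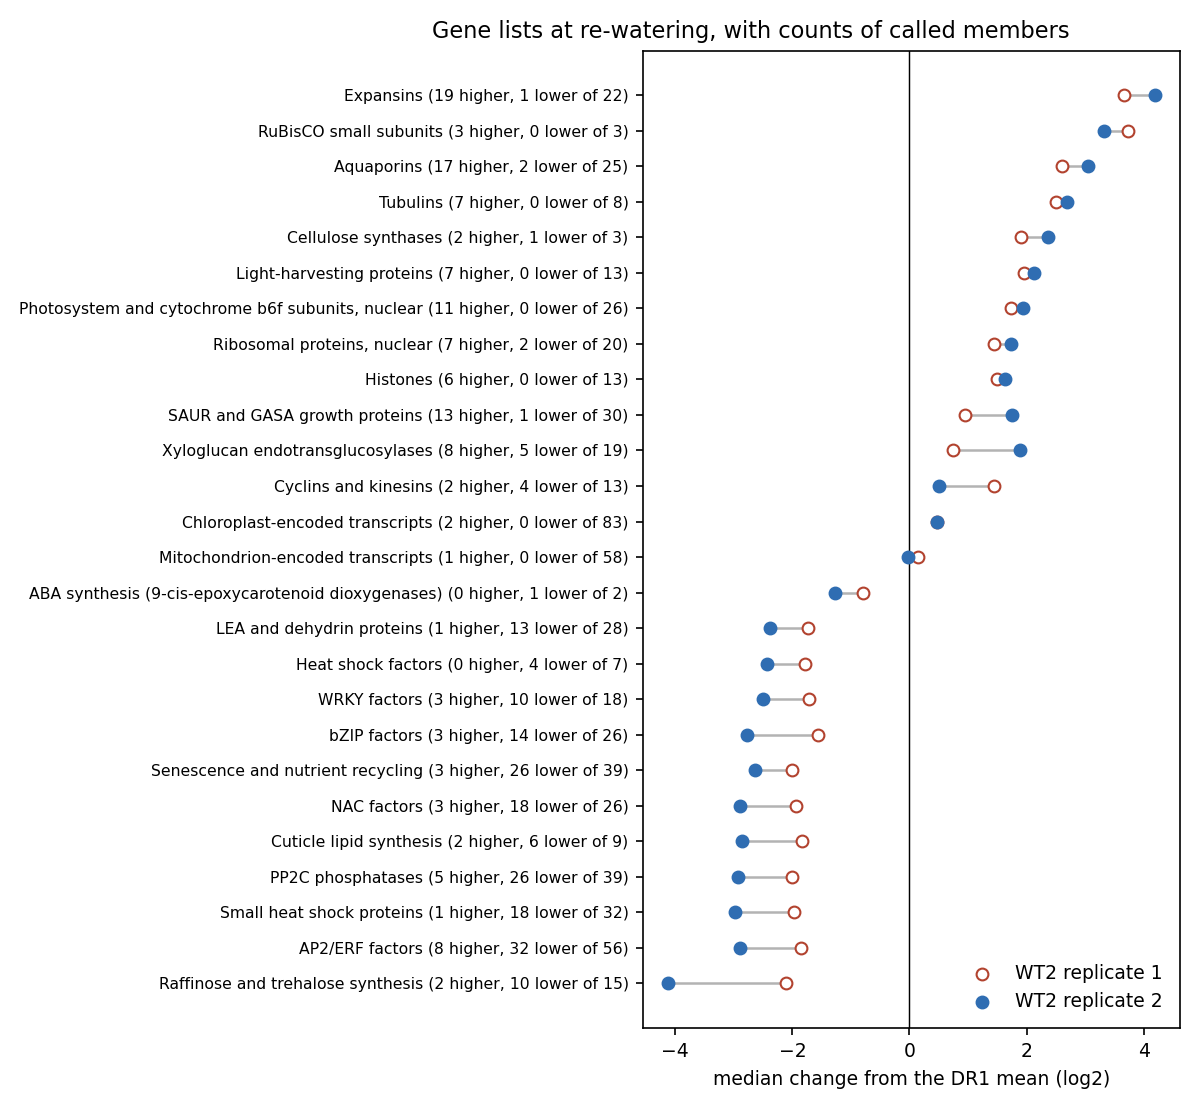
Median log2 change from the DR1 mean for each gene list on WT2 replicate 1 (open points) and on WT2 replicate 2 (filled points), with the number of members called higher and lower beside each list. Most lists with positive medians, such as the light-harvesting proteins at 1.95 and 2.13, have both arrays close together. Lists with negative medians, such as raffinose and trehalose synthesis at -2.11 and -4.13, have replicate 2 further from 0 in each case.

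Among loci well above background on both arrays of both conditions, the 10 largest rises were in the Cupin_1, Hydrophob_seed, Peptidase_M10 and GASA families and in a pair of transcripts without a family name. Ranked by change, with each WT2 array over 4-fold above each DR1 array, these loci changed by 6.99 to 9.59. They were called under all alternatives. The limma adjusted P ran from 5.51e-06 to 1.40e-05 in the main fit and from 3.12e-04 to 3.68e-04 with only the 4 DR1 and WT2 arrays. The first was Glyma.07G038500-1 (Cupin_1), with 39.5 and 42.7 at DR1 and 30446 and 32864 at WT2 (9.59 ± 0.33), and Glyma.16G007700-1 of the same family rose by 8.99. Cupin_1 is the family of seed storage globulins, but these transcripts were high in watered leaves too, the first with 20919.8 and 30429.6 at WT1. Glyma.14G115500-1 (Hydrophob_seed, the family of lipid-transfer and related small proteins) read 98.3 and 104 at DR1 and 56617 and 82453 at WT2 (9.40 ± 0.28), and Glyma.17G212200-1 of that family rose by 8.91. The unnamed pair, Glyma.15G057600-1 and Glyma.05G011200-1, rose by 8.29 and 8.25.

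Peptidase_M10, the family of matrix metalloproteinases that act on proteins outside the cell, gave 3 of these 10, which led to a look at the whole family after the values were seen. Of its 13 transcripts tested, 12 rose and 0 fell, with a median of 5.72 (5.03 on replicate 1 and 6.30 on replicate 2). Glyma.02G028200-1 had 72.4 and 65 at DR1 and 19832 and 17786 at WT2, against 16536 and 21494 at WT1 and 89.8 and 94 at DR2. Its change was 8.10 ± 0.22 (adjusted P = 5.51e-06), and both WT2 arrays lay within the range of the WT1 arrays.

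A run of 10 members of the family carries consecutive locus numbers on chromosome 2, from Glyma.02G027900 to Glyma.02G028900, with 1 unannotated locus, Glyma.02G028400, among them. Of these 11 transcripts 10 rose. The exception was the first, Glyma.02G027900-1, with 18.7 and 23.6 at DR1 and 31.6 and 51.1 at WT2 (0.94 ± 0.40, adjusted P = 0.101). Next to it, Glyma.02G028000-1 rose by 6.43, Glyma.02G028100-1 by 7.05, Glyma.02G028400-1 by 6.49, Glyma.02G028500-1 by 5.01, Glyma.02G028600-1 by 8.00, Glyma.02G028700-1 by 6.73 and Glyma.02G028800-1 by 6.34. Glyma.02G028300-1 and Glyma.02G028900-1 were not well above background on either DR1 array, and their fitted changes were 16.3-fold and 18.2-fold higher at WT2. The size of these changes is uncertain, because neither DR1 value was measured above background. Both calls were lost with a normexp offset of 50 and the latter also with an offset of 0, and that of Glyma.02G028500-1 was lost in all 3 settings that started from the scanner files. Probes of such similar copies can share signal, so the values of single copies are uncertain.

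**Figure D4:**
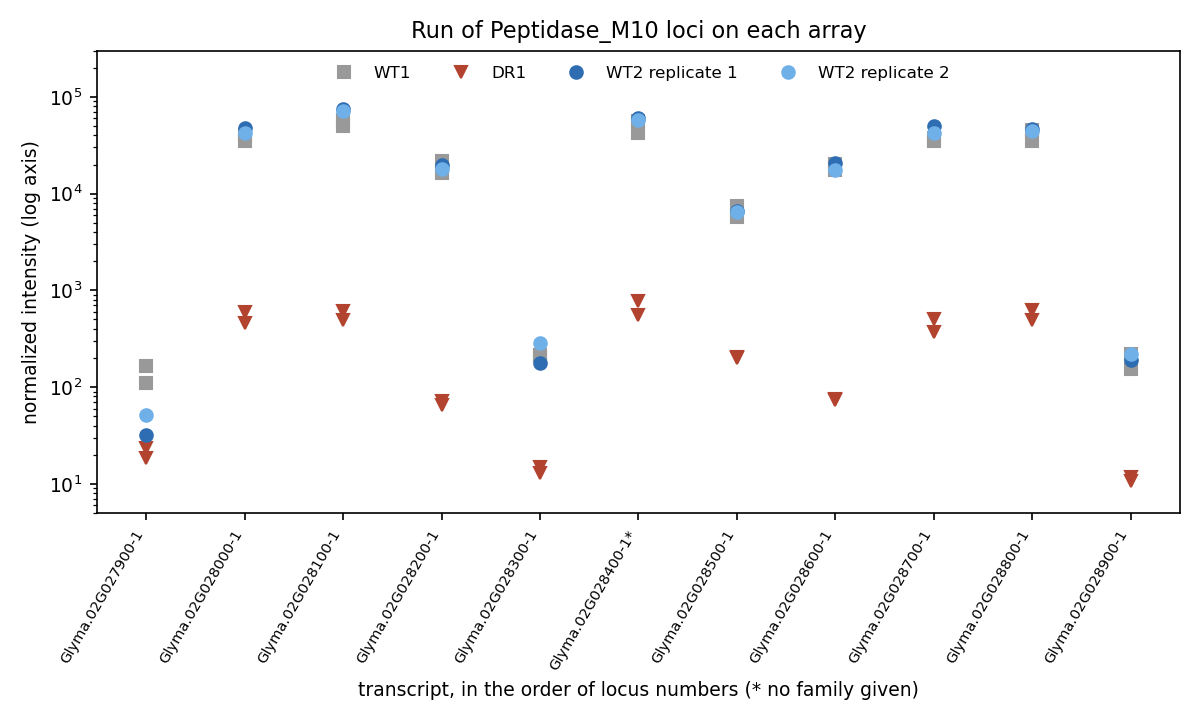
Normalized intensity (log axis) of the 11 transcripts with consecutive locus numbers on chromosome 2 on each WT1, DR1 and WT2 array, 1 point per array (squares WT1, triangles DR1, circles WT2). Apart from Glyma.02G027900-1, the WT2 points lie with the WT1 points and above the DR1 points, with the largest gap, 8.10 on the log2 scale, in Glyma.02G028200-1.

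Further families that were picked out after their values were seen moved the same way. Lipid-transfer related proteins (Hydrophob_seed) had 15 of 17 higher (median 3.17), copper oxidases 9 of 11 (3.29) and fatty acid desaturases 10 of 11 (2.88), with 0 lower in each. Among the copper oxidases, Glyma.17G138300-1 is similar to *Arabidopsis* SKU5, which affects directional root growth, and it read 412 and 777 at DR1 and 5898 and 5194 at WT2. Glycosyl hydrolases of family 9, the endoglucanase family, had 4 of 6 higher, led by Glyma.05G216400-1 with 114 and 168 at DR1, 8038 and 8524 at WT2 and a change of 5.90.

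Glyma.08G176300-1, similar to *Arabidopsis* NCED3, the dioxygenase that limits ABA synthesis under drought, read 54509.5 and 49962 at DR1 and 9240.4 and 202 at WT2, against 578 and 797 at WT1. Replicate 1 stood 5.65-fold below the DR1 mean and replicate 2 stood 259-fold below it. The mean change was -5.26 ± 1.39 (SE, adjusted P = 0.0199), and the call was lost when either DR1 array was left out. Glyma.11G180800-1, similar to ABA2, the dehydrogenase that makes abscisic aldehyde, fell from 1838 and 818 to 145 and 24.1 (-4.37 ± 0.73, adjusted P = 0.00349). Glyma.16G109300-1, similar to CYP707A1, which breaks ABA down, also fell, from 246 and 191 to 47 and 27.9 (-2.58). Of the 2 transcripts annotated as RPE65, the dioxygenase family, Glyma.08G255400-1, similar to NCED5, fell from 139 and 136 to 30.2 and 11.5 (-2.88), and the other, with a change of 0.82, was not called. The calls of the transcripts similar to CYP707A1 and NCED5 were lost with a normexp offset of 50 and with 32 added before log2.

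Downstream in the pathway, PP2C phosphatases, the negative regulators that ABA receptors block, had 26 of 39 lower and 5 higher, with a median of -2.47 (-2.0 on replicate 1 and -2.93 on replicate 2). Glyma.14G162100-1 read 37614 and 38804 at DR1 and 6975 and 638 at WT2 (-4.18 ± 0.89, adjusted P = 0.00859), beside 338 and 344 at WT1. Replicate 1 was 5.48-fold and replicate 2 59.9-fold below the DR1 mean. The bZIP factors had 14 of 26 lower and 3 higher, with medians of -1.56 and -2.77 on replicates 1 and 2, and 9 were lower without WT2 replicate 2. Both lists kept a negative median when either WT2 array was left out. With a normexp offset of 50 the lower counts were 13 PP2C and 8 bZIP transcripts.

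Protective proteins and sugars followed. LEA and dehydrin transcripts, for hydrophilic proteins that accumulate in drying cells, had 13 of 28 lower and 1 higher, with a median of -1.91. With a normexp offset of 50 the lower count was 6. Glyma.03G144400-1, annotated as a group 1 LEA protein, was not among these 28, whose lowest change was -5.51. The family annotation was used in part, so such counts can leave out members. This transcript went from 55949 and 46841 at DR1 to 8535 and 57.3 at WT2 (-6.19 ± 1.81, adjusted P = 0.0294), against 24.4 and 42.7 at WT1. Its WT2 arrays were 6.0-fold and 894-fold below the DR1 mean, and the call was lost when either DR1 array or either WT1 array was left out and when only the 4 arrays of both conditions were fitted. The dehydrin Glyma.04G009900-1 fell from 1932 and 1723 to 291 and 28, and the dehydrin Glyma.08G048900-1 from 1576 and 1526 to 255 and 25, with changes of -4.34 and -4.28. Against the list, Glyma.10G079900-1 (LEA_2) rose by 4.20, from 492 and 439 to 8809 and 8218.

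Small heat shock proteins (HSP20), chaperones that hold unfolded proteins, had 18 of 32 lower and 1 higher (median -2.47). Glyma.08G212000-1 read 1717 and 1743 at DR1 and 279.9 and 22.8 at WT2 (-4.44 ± 0.93, adjusted P = 0.00833). The one that rose, Glyma.15G106700-1, went from 622 and 502 to 9519 and 12771 (4.30). Raffinose and trehalose synthesis transcripts, for soluble sugars of stressed leaves, had 10 of 15 lower and 2 higher, with medians of -2.11 on replicate 1 and -4.13 on replicate 2. Glyma.19G217700-1 (Raffinose_syn) fell from 77618 and 84095 to 14042 and 737 (-4.65 ± 1.07, adjusted P = 0.0119), a call lost without either DR1 array.

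**Figure D5:**
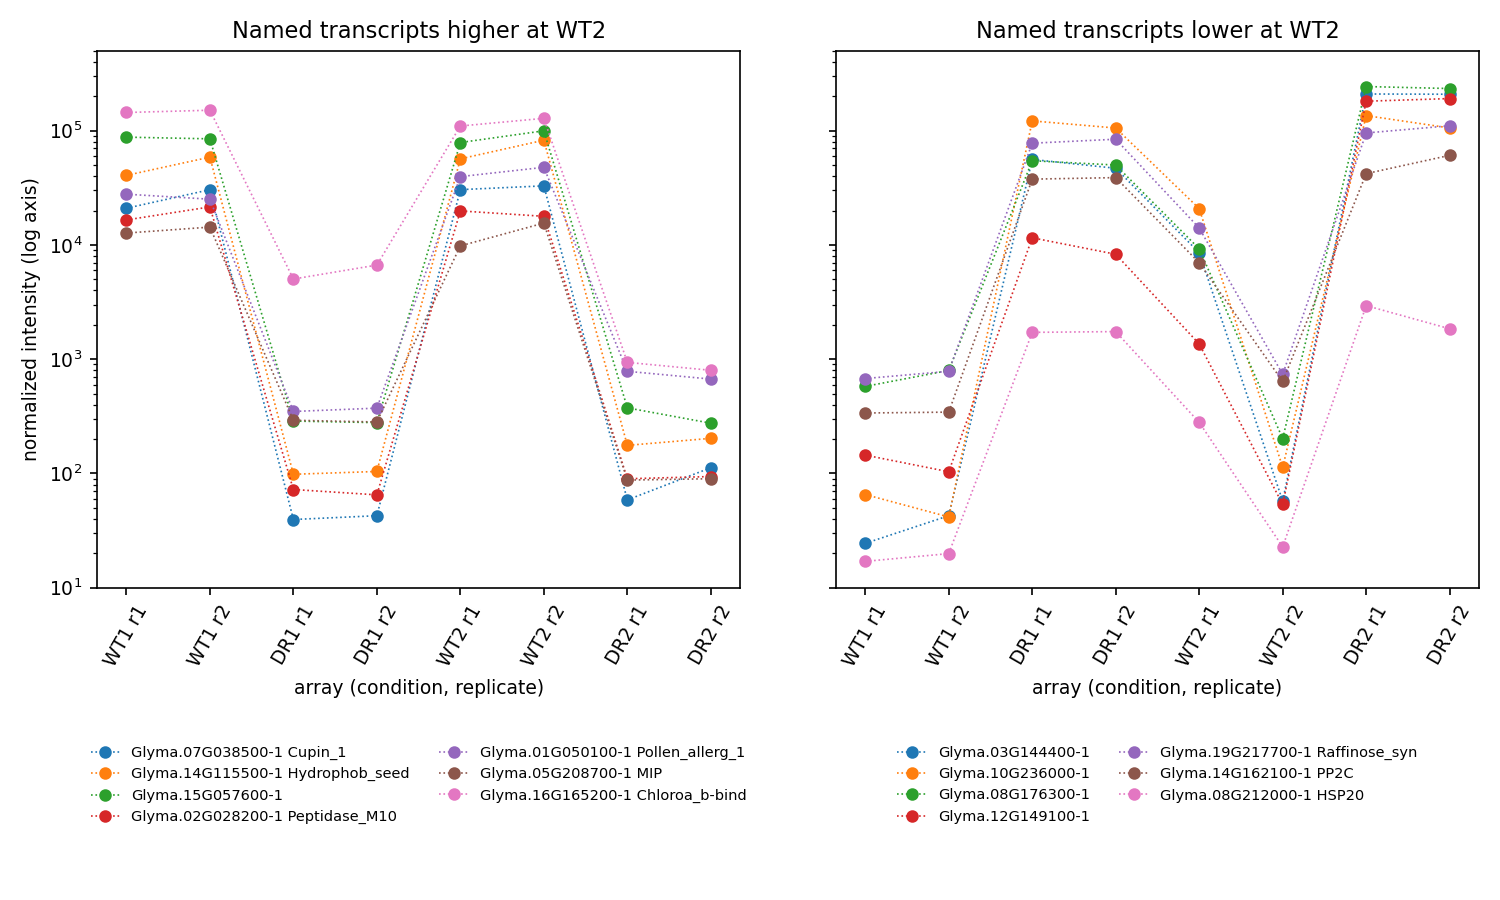
Normalized intensity (log axis) of named transcripts on each WT1, DR1, WT2 and DR2 array, 1 point per array, joined by dotted lines only to show which points belong together. In transcripts that rose, such as the aquaporin Glyma.05G208700-1, both WT2 points lie close together near WT1, and in those that fell, such as Glyma.08G176300-1, WT2 replicate 1 lies between DR1 and WT1 while replicate 2 lies near or below WT1.

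Transcription factor families of the stress response were mostly lower. AP2 factors, which include the DREB and ethylene response factors, had 32 of 56 lower and 8 higher (median -2.49), NAC factors 18 of 26 and 3 (-2.39), WRKY factors 10 of 18 and 3 (-2.23) and heat shock factors 4 of 7 and 0 (-2.11). Without WT2 replicate 2 the lower counts dropped to 20 AP2 and 0 heat shock factors, and with a normexp offset of 50 that of WRKY factors was 3. Glyma.12G149100-1, similar to *Arabidopsis* RD26, a NAC factor induced by desiccation and ABA, read 11542 and 8280.1 at DR1 and 1359 and 53.5 at WT2 (-5.18 ± 1.18, adjusted P = 0.0115), and its call was lost without DR1 replicate 1. It was not among the 26 NAC transcripts counted, whose lowest change was -4.805. Glyma.13G279900-1, similar to ANAC055, fell from 12470.2 and 11534 to 1934 and 101 (-4.76), a call that was likewise lost without DR1 replicate 1. The AP2 transcript Glyma.13G233900-1 went the other way, from 61.9 and 69.3 to 2496 and 3059 (5.40 ± 0.24, adjusted P = 2.66e-05), above the WT1 values of 1333 and 1829.

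Senescence and nutrient recycling transcripts had 26 of 39 lower and 3 higher (median -2.27). Glyma.01G214600-1 (Staygreen, a family known in *Arabidopsis* for chlorophyll breakdown) fell from 28699.5 and 28228 to 5771 and 1175 (-3.45 ± 0.60, adjusted P = 0.00403), and replicate 2 was below the WT1 values of 2397 and 2221. Asparagine synthases, which store nitrogen as asparagine, moved both ways. Glyma.18G061100-1 fell from 135938 and 96443 to 20941 and 5566 (-3.41), whereas Glyma.14G195000-1 rose from 519 and 499 to 9476 and 10115 (4.27). Cuticle lipid transcripts also split, with 6 of 9 lower and 2 higher, or 3 lower without WT2 replicate 2. Glyma.03G101300-1 (Wax2_C) fell from 1375 and 1152 to 239.6 and 13.2, a call lost without DR1 replicate 1, and Glyma.U033000-1 (FAE1_CUT1_RppA, the long-chain fatty acid elongation family) rose from 416 and 308 to 5032 and 5456.

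Some families with all or most transcripts lower were picked out after their values were seen. Their counts are of transcripts, some of which share a locus. Oleosins, which coat oil bodies, had 6 of 6 lower (6 loci), with medians of -2.48 and -5.19 on replicates 1 and 2. Ferritins, which store iron, had 7 of 7 lower (4 loci, median -2.98), and the Auxin_repressed family 8 of 8 (3 loci, -3.05). The Auxin_repressed transcripts are also part of the senescence and nutrient recycling list above, so these 8 falls are counted there too. Sucrose synthases, which cleave sucrose, had 5 of 6 lower (2 loci, -3.57). Jas-domain transcripts had 5 of 6 lower and 1 higher (5 loci, -3.71).

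Large falls show the split between the WT2 arrays most clearly. The 10 loci with the largest fall among those well above background on both arrays of both conditions, and over 4-fold lower in every array pair, changed by -6.30 to -5.62, with adjusted P from 0.0192 to 0.0335. Glyma.10G236000-1 read 121671 and 105374 at DR1 and 20768 and 113 at WT2, and Glyma.08G160800-1 read 16503 and 15612 at DR1 and 2676 and 15.4 at WT2. The value of 15.4 lies below 28.5, the 1st percentile of transcripts well above background on WT2 replicate 2. The size of that fall is therefore uncertain, as for other named falls with a replicate 2 value below 28.5. Without WT2 replicate 1 the 10 changes ran from -10.0 to -8.56, and without replicate 2 from -2.75 to -2.42. With 1 WT2 array left, the gap between the WT2 arrays is outside the error, so only the sizes are given. All 10 calls were lost without DR1 replicate 1 (adjusted P 0.0759 to 0.112) or without DR1 replicate 2 (0.0674 to 0.0993), 3 were kept without either WT1 array, and 1 was kept with only the 4 DR1 and WT2 arrays. The direction on each WT2 array was set by the choice of these loci, which required a fall in every array pair. Their mean fall lay far from the value on either WT2 array.

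The widest gap among called transcripts was in Glyma.17G164200-1, which is not annotated, with 104112 and 87099 at DR1 and 15841 and 27.2 at WT2 (-7.18 ± 2.29, adjusted P = 0.0398), beside 21.9 and 17.3 at WT1. Replicate 1 was 6.01-fold below DR1, and on replicate 2 the transcript was not well above background. The call was lost when any DR1 or WT1 array was left out, with only the 4 DR1 and WT2 arrays, and on the processed signal. Of the 1726 lower calls, 329 had a probe well above background on WT2 replicate 1 only, 0 on replicate 2 only and 65 on neither array. Among the falls named here, replicate 1 alone measured Glyma.08G255400-1, Glyma.16G109300-1, Glyma.04G009900-1, Glyma.05G149700-1, Glyma.03G101300-1, Glyma.U018200-1, Glyma.20G155100-1 and Glyma.17G164200-1. For calls with the dimmer condition measured on neither array, values below the lowest signal well above background were raised to that signal. After this, 53 of the 65 lower calls still passed 4-fold, as did 310 of 311 higher calls with neither DR1 array above background. Values above that signal were not changed, and a call already required over 4-fold, so these counts are not a separate test.

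Among 9 transcripts with qRT-PCR assays, 7 were called lower and 0 higher. The shares were 31.6% lower and 27.5% higher among transcripts listed in the study's tables, and 3.15% and 4.00% among all tested. The study took them from transcripts that rose at DR1 on these same arrays, so their falls are not independent evidence. With a normexp offset of 50 the calls of Glyma.06G061900-1, Glyma.U018200-1, Glyma.04G042300-1 and Glyma.20G155100-1 were lost. Glyma.U018200-1, similar to *Arabidopsis* RAB28, an LEA protein, fell from 315 and 226 to 48 and 17.3 (-3.21), and Glyma.20G155100-1, similar to DREB1A, from 244 and 221 to 44.3 and 18.2 (-3.03). Without WT2 replicate 2 the call of the latter was lost (adjusted P = 0.063), as was that of Glyma.04G042300-1 (-2.49 on both arrays together). The other two stayed within 4-fold on average, Glyma.11G025600-1, similar to osmotin 34, with -1.85 ± 0.42 (adjusted P = 0.0113) and Glyma.12G116800-1 (PP2C) with -1.83 ± 0.30 (adjusted P = 0.00309). In Glyma.12G116800-1 replicate 1, at 392, was lower than replicate 2, at 526, which reverses the order seen in most falls.

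Markers of other leaf cell types were summed over transcripts, and some of them also belong to lists above. Vascular markers (11 transcripts of fasciclin-like proteins and cellulose synthases) summed to 2562 and 2949 on the DR1 arrays and 23679 and 25854 on the WT2 arrays, with 9 called higher and 1 lower. Markers of dividing cells (22) summed to 22025 and 21989 at DR1 and 29619 and 34346 at WT2, with 8 higher and 4 lower. Epidermal markers (8) summed to 17653 and 15788 against 17938 and 15931, with 2 called higher and 5 lower. Seed family transcripts (28) summed to 14837 and 14074 at DR1 and 104400 and 114180 at WT2, although 15 of them fell and 6 rose, and the 2 Cupin_1 transcripts named above made up most of the WT2 sums. Markers of root nodules were represented by 0 transcripts tested. The mesophyll and vascular sums were higher on both WT2 arrays, as were most called members of the photosynthesis and expansin lists, and their part in those changes was not tested. The mesophyll markers are the same 16 transcripts as the light-harvesting and RuBisCO lists, so their sum is not separate from those lists.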

How the data were processed

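Leaf RNA was labelled with Cy3 and hybridised to Agilent 180K arrays, read with Feature Extraction. The authors deposited a table of intensities for 60386 transcripts over the 8 arrays, background adjusted and normalized with limma, and this table was used on the log2 scale. Scanner intensities and flags, deposited per array, served for detection and as alternatives. Transcripts were tested only if some probe exceeded background, by the scanner's own call, on both replicates of any condition. Group means for 4 conditions were fitted over the 8 arrays with limma 3.58.1 (R 4.3.3, lmFit and eBayes), and P values of WT2 minus DR1 were adjusted by Benjamini-Hochberg over all 54851 transcripts tested. All adjusted P values are from limma. A call needed over 4-fold and an adjusted P below 0.05. SE is the moderated standard error of the log2 difference. With 2 arrays a condition, the number of arrays limits the precision. For a bound, values of the dimmer group below the lowest signal of a transcript well above background on that array were raised to it. Other values were left as they were.

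Families and *Arabidopsis* similarities came from the study's annotation, used in part. The sample labels set the members, but this comparison and the gene lists were chosen with earlier results of these data known. Named transcripts were the 10 largest rises and falls over 4-fold in every array pair, the leading called members of each list and its strongest exception, the qRT-PCR set, transcripts named by the study, and those with the widest gap between the WT2 arrays. The test was tried on simulated data. Alternatives covered normalization, scaling, filters, array weights, a replicate block, each array left out and other call limits. Sequences and promoter motifs were not analysed here, and columns of the authors' own comparisons were not used.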

Additional observations from a re-analysis of the deposited data

How the results depend on the processing

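The count of higher transcripts was within 1.5 times 2196, and that of lower ones within 1.5 times 1726, for normexp with offset 0, 75th-percentile shift of the table, a pseudocount of 32, filters, 4 arrays only, array weights and unique-exon entries left out. The array weights were equal within each condition (0.544 for both WT2 arrays), so they could not favour either WT2 array. With normexp offset 50 the counts were 1170 higher and 1055 lower. The processed signal minus the 75th percentile gave 3608 higher and 1942 lower. Its median change was 0.13 above that of the deposited table, and 65.0% of its calls were higher against 56.0%. A 2-fold limit gave 7825 and 7103, limma's treat against 4-fold 249 and 0 (1032 and 713 at an unadjusted P below 0.05), and the rule of over 4-fold in both numbered pairs 1555 and 1111. Leaving out 1 array gave 1562 to 2976 higher and 988 to 2717 lower, both ends set by the WT2 arrays. The replicate block gave 2195 and 1720, and the crossed pairing, added after seeing the data, 2194 and 1723. Deviations of same-numbered arrays correlated at -0.14 between DR1 and WT2 and from -0.30 to 0.30 over all groups, so the numbers were not treated as pairs. Of 181 named transcripts over 22 alternatives, 0 changed direction, but of the 166 called only 37 kept their call under all 22. Many alternatives leave the estimated change as it is, so direction could not differ there. These are the filters, array weights, replicate blocks, 4 arrays only, WT1 or DR2 arrays left out, unique-exon entries left out and call limits. Direction could differ only with the other normalizations and scalings, the pseudocount, or a DR1 or WT2 array left out. The causes of the shifted counts and lost calls were not tested. No fit with slide as a term can be made, and the promoter motif search was not run.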

Other observations

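A few transcripts at WT2 lay apart from both DR1 and WT1, chosen after their values were seen. Glyma.02G120300-1 read 103 and 139 at WT1, 90.7 and 109 at DR1 and 1493 and 1864 at WT2, a change from DR1 of 4.07 ± 0.66 (adjusted P = 0.00306). Glyma.01G062100-1 read 160 and 183 at WT1, 116 and 143 at DR1 and 1712 and 2058 at WT2 (3.87 ± 0.54, adjusted P = 0.00184). In the other direction Glyma.03G226000-1 changed by -2.96 and Glyma.19G223000-1 by -2.66 from DR1. None of these 4 is annotated in the tables used, and WT2 lies on another slide than DR1 and WT1, so slide and condition cannot be told apart.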
